A study of Homo sapiens with 12 samples.

Results

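The 29 genes described here make, sense and carry cholesterol. They were chosen by gene symbol as the enzymes of cholesterol synthesis with the SREBP2 regulators and sterol transporters that belong to the same pathway, and all 29 were found among the 27249 genes listed with an Ensembl identifier. Their RNA was measured in Huh7 and HepG2 cells, which are human lines labelled as hepatocellular carcinoma cells. Each line was sequenced as parental cells, labelled sorafenib sensitive and untreated, and as sorafenib-resistant cells. This gives 4 groups of 3 samples, and the genotype is given as WT in all 12 samples. Sorafenib is a multikinase inhibitor given in advanced liver cancer. For the resistant cells, a first dose of 10 μmol was left on the cells for 24 h, survivors that kept growing without the drug were retained, and the cycle went on with rising doses for 8 months. The resistant cells of a line are therefore a population selected from it, and the labels do not say whether it is 1 clone or whether sorafenib was present when RNA was taken. The comparison of resistant with parental cells asks how transcription of the pathway differs once resistance is established, and having both lines allows that difference to be compared between them.

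Cholesterol is built from acetyl-CoA through mevalonate, isoprenoid units, squalene and a series of sterols. Liver cells carry out this synthesis and also take cholesterol up and export it. When the membrane of the endoplasmic reticulum is short of sterol, the escort protein SCAP carries the precursor of the transcription factor SREBP2 to the Golgi, where proteases release the active factor that switches on most genes of the pathway. When sterol is plentiful, INSIG proteins hold SCAP and SREBP2 back. The RNA of SREBF2, the gene of SREBP2, is thus a different quantity from the activity of the protein, which was not measured here.

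No unit is stated for the values in the deposited tables. They have the pattern of reads or fragments divided by gene length and sequencing depth and are called FPKM here, so levels can be set side by side between genes. The reads behind a sample numbered 18972432 to 19286014 in resistant Huh7 cells, 16158300 to 17944448 in parental Huh7 cells, 16935510 to 18281796 in resistant HepG2 cells and 12290200 to 15728855 in parental HepG2 cells. All 8 hepatocyte markers examined (ALB, AFP, TTR, TF, APOA2, AHSG, FGB and HNF4A) were expressed in every sample, with ALB at 571 FPKM or more. Several of them changed with resistance. In HepG2 cells APOA2 was higher and ALB, AFP and FGB were lower at an adjusted p under 0.05, with log2 fold changes of 1.26, -0.93, -1.91 and -1.98, and the summed level of the 8 markers was 3571 to 4235 FPKM in resistant and 4478 to 5536 FPKM in parental cells. In Huh7 cells APOA2, AHSG and HNF4A were higher and ALB and AFP lower, with a summed level of 5208 to 5706 FPKM and 6901 to 8723 FPKM. The part of these markers in the results was not tested. Of the 9 markers of other cell types, the fibroblast gene DCN stayed at or below 0.0231 FPKM, the endothelial gene CDH5 at or below 0.0494 FPKM and the leukocyte gene CD68 at or below 0.116 FPKM, while PECAM1 reached 3.61 FPKM and PTPRC 1.51 FPKM. The summed level of the 3 endothelial markers was 1.17 to 1.60 FPKM in resistant and 2.58 to 3.66 FPKM in parental HepG2 cells, where PECAM1 was lower (log2 fold change -0.81, adjusted p = 0.0117), and at least 2.11 FPKM in resistant and at most 1.52 FPKM in parental Huh7 cells, where PECAM1 was higher (0.31, adjusted p = 0.0208). The summed level of the 3 fibroblast markers was 1.36 to 1.74 FPKM in resistant and 0.261 to 0.307 FPKM in parental Huh7 cells, and the part of these markers in the results was not tested either. In RNA from a whole culture, fewer cells of a kind and less RNA per cell cannot be told apart. Nothing in the labels says that the 3 samples of a group came from separate cultures, so that p-values measure only the spread between these samples, which may be technical.

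In HepG2 cells, the resistant cells had more RNA of most sterol synthesis enzymes, and in Huh7 cells the same enzymes were split between higher and lower. A gene was called when its Benjamini-Hochberg adjusted p-value was under 0.05 and its log2 fold change was beyond 1 in limma on log2(FPKM + 1), which are the thresholds in the methods of the study. In HepG2 cells, 8 of the 27 members that passed the filter on low values (29.6%) were called higher, beside 3.29% of the 11762 genes tested. The 8 were ACAT2, HMGCS1, MVD, IDI1, FDFT1, SQLE, LSS and DHCR7. All 27 had at least 1.28 FPKM in each of the 6 HepG2 samples, the lowest being MVD, so that none passed the filter through resistant cells alone. None was called lower in HepG2 cells, beside 2.98% of all genes, and 2 had a lower value at an unadjusted p under 0.05, while limma-voom on reads calculated back called none lower. At an adjusted p under 0.05 without the fold threshold, 16 members were higher, beside 11.6% of all genes, and 1 was lower, beside 8.43%. The 16 were 10 without parental replicate 1, 8 without resistant replicate 3 and 21 with the replicate number as a block. The 3 resistant HepG2 samples lay above all 3 parental samples in 19 of these 27 members, beside 24.9% of all genes, and below them in 1, beside 15.5%. The median log2 fold change of the members was 0.70 and that of all genes 0.12. Over all genes the split between calls depended on the scaling, with 387 higher and 350 lower calls on the values as deposited, 297 and 417 after median-ratio scaling and 279 and 444 once the trend of each library with GC content was removed.

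In Huh7 cells, no member was called higher, beside 8.59% of the 12554 genes tested, and 4 of 29 (13.8%) were called lower, beside 14% of all genes. The 4 were MSMO1, SC5D, INSIG2 and STARD4, and their share was near that of all genes. None of these 4 calls was left when the trend of each library with GC content was removed. With the unadjusted p under 0.05, 11 members were higher without a fold threshold and 0 with one, and limma-voom called 0 higher. At an adjusted p under 0.05, 10 members were higher, beside 32.7% of all genes, and 8 were lower, beside 37.4%. Resistant samples lay above all parental samples in 11 members, beside 35.2% of all genes, and below them in 7, beside 39.2%. The median log2 fold change was 0.10 for the members and -0.04 for all genes. The summed level of the 20 enzymes was 954 to 968 FPKM in resistant and 904 to 977 FPKM in parental Huh7 cells, ranges that overlap. In HepG2 cells it was 290 to 332 FPKM in resistant and 157 to 161 FPKM in parental cells, without overlap.

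The change differed between the lines for 21 of the 29 members at an adjusted p under 0.05 for the interaction of line and resistance, which was tested in all 12 samples and 13628 genes. For 17 members (58.6%) the change was higher in HepG2 cells, beside 33.4% of all genes, and for 4 members (13.8%), namely SREBF2, SCAP, INSIG1 and NPC1, it was higher in Huh7 cells, beside 23.3%. The 17 include CYP51A1 and the 4 include INSIG1, which passed the filter on low values through their Huh7 samples alone. The difference is given below as the log2 fold change in Huh7 cells minus that in HepG2 cells, and positions of genes are on GRCh38.

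**Figure D1:**
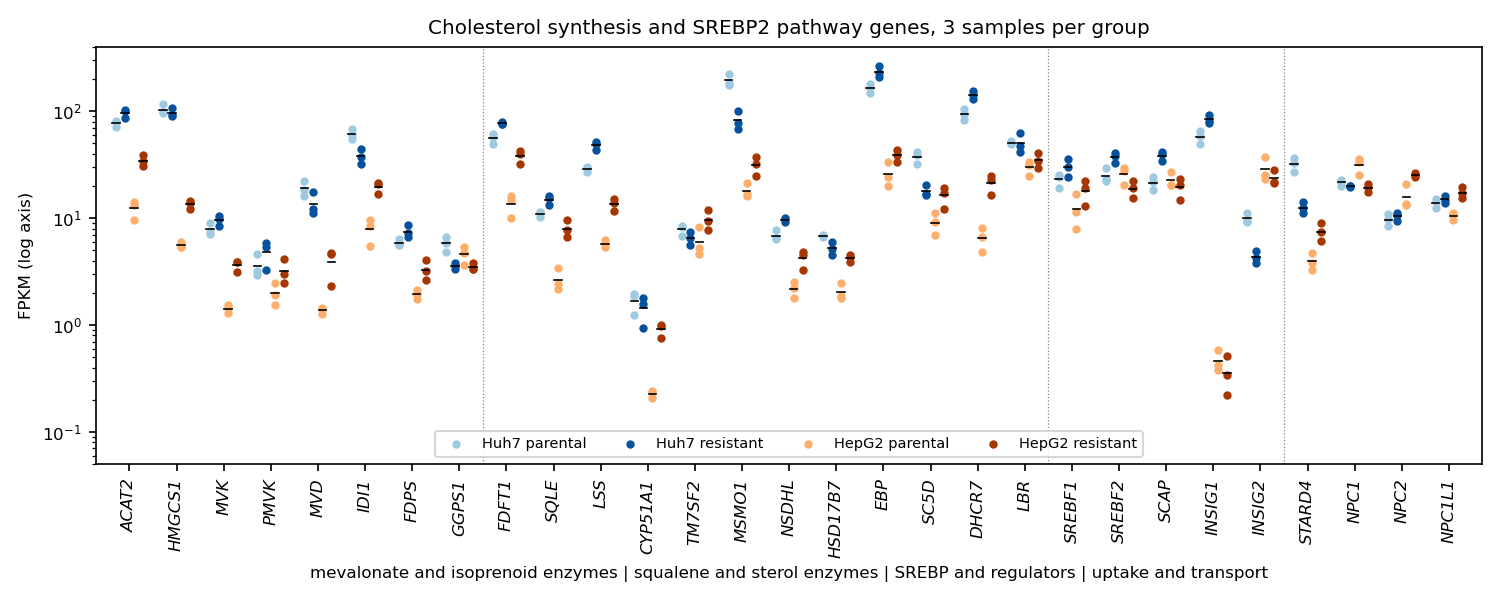
FPKM of each of the 29 genes (log axis) in the 12 samples, with 1 point per sample, a short bar at the mean of the 3 samples of a group and dotted lines between the groups of genes. In HepG2 cells the resistant points lie above the parental points for most enzymes, and INSIG1 lies below 1 FPKM in all 6 HepG2 samples and above 49 FPKM in the 6 Huh7 samples.

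**Figure D2:**
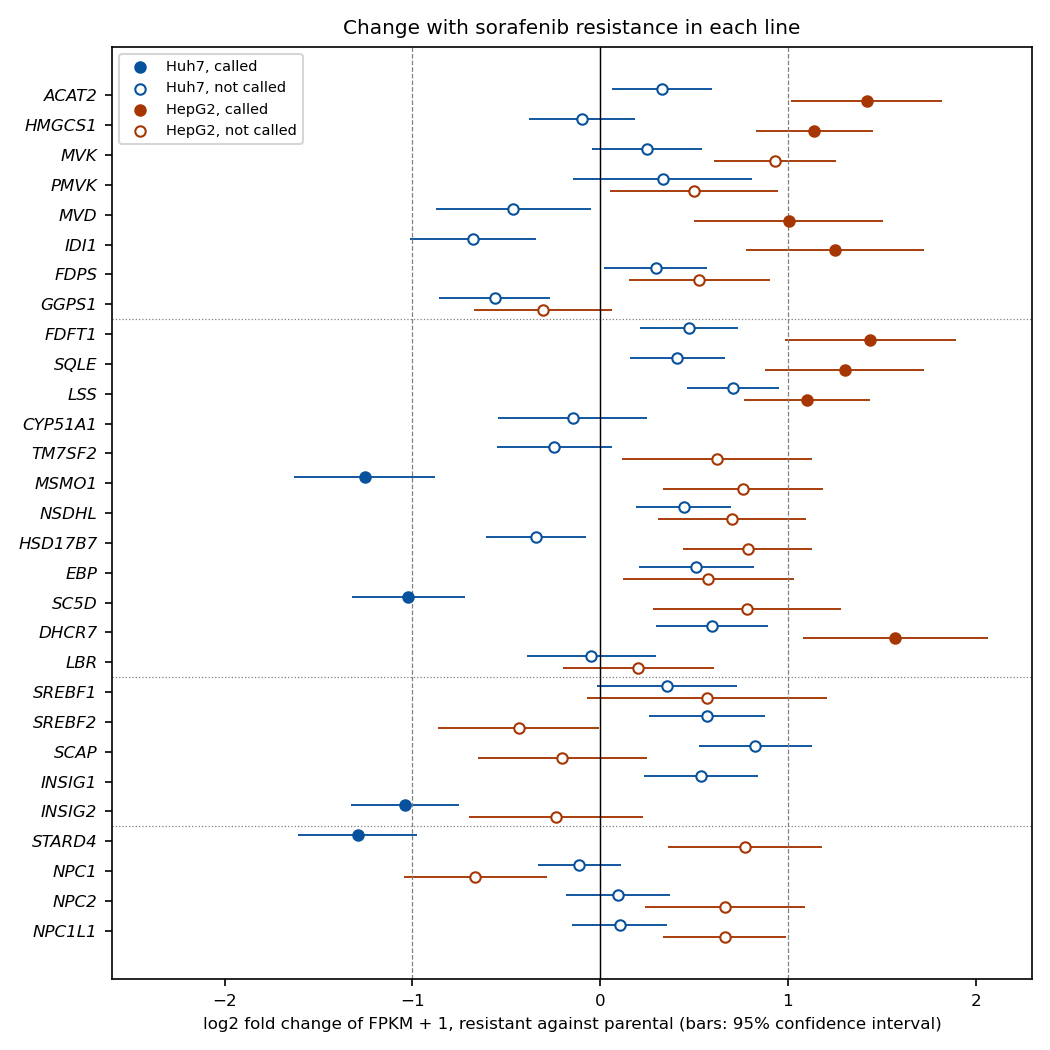
Log2 fold change of FPKM + 1 between resistant and parental cells for each gene in Huh7 (blue) and HepG2 (brown), with 95% confidence intervals from limma, filled points for called genes and dashed lines at the fold threshold. The 8 called HepG2 genes lie to the right and the 4 called Huh7 genes to the left; CYP51A1 and INSIG1 have no HepG2 point because they did not pass the filter on low values.

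Because most enzymes moved together in HepG2 cells, the sequence before their starts is shown for 4 of the called genes. It is also shown for SREBF2, which was not called there, and for INSIG1, which lay under the filter on low values. RefSeq promoters of 300 bases (250 before to 50 after a listed start, GRCh38.p14) were at hand for 26 of the 29 members, with ACAT2, FDFT1 and SQLE having no entry. DHCR7 has an entry, in which CCAAT occurred, but its window did not meet the position rule used for printing. Each line below gives 140 bases, 5′ to 3′ on the strand of the gene, ending just before the start of the gene in GENCODE. Capitals mark CCAAT or its reverse complement ATTGG, the letters bound by NF-Y, a factor known to act beside SREBPs, and in SREBF2 also TCACCCCAC, a match to the sterol regulatory element searched as TCACNCCAC.
HMGCS1, chr5:43313513-43313652, minus strand: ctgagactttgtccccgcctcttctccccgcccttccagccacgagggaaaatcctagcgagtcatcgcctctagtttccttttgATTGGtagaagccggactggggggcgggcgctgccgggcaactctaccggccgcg
MVD, chr16:88663162-88663301, minus strand: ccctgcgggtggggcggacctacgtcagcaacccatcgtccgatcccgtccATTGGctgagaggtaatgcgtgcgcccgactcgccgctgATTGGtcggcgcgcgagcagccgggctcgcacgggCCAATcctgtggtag
IDI1, chr10:1049171-1049310, minus strand: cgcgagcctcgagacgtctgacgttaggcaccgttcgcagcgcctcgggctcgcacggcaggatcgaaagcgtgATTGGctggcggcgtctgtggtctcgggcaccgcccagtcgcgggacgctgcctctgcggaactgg
LSS, chr21:46228825-46228964, minus strand: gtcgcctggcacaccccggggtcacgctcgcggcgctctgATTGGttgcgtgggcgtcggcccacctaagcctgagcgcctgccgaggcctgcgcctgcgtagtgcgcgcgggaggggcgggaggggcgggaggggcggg
SREBF2, chr22:41832939-41833078, plus strand: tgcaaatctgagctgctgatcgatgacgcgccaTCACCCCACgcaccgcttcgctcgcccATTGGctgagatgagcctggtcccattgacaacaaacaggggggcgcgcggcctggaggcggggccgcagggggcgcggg
INSIG1, chr7:155297636-155297775, plus strand: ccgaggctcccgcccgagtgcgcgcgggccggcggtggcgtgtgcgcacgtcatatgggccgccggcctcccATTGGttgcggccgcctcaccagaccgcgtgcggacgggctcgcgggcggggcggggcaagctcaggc

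Over both strands of the 300 bases, CCAAT occurred in 19 of the 26 members (73.1%) and in 39.7% of the 27305 genes in the table. Some genes have more than 1 listed start, and a gene was counted if any of its windows held the letters. By window, CCAAT occurred in 21 of the 35 windows of the members (60%) and in 34.6% of all 35116 windows. The sterol regulatory element letters occurred in 1 of 26 members (3.85%), SREBF2, and in 1.39% of all genes. The E-box CACGTG occurred in 4 of 26 members (15.4%), which were LSS, SC5D, SCAP and INSIG1, and in 8.77% of all genes. Matches of CCAAT on opposite strands overlapped in IDI1 and NSDHL, and no match of one motif overlapped a match of another in these members. A match is a description of the letters and not a measured binding site, and the absence of a match says only that these letters are not in this window.

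The first enzymes lead from acetyl-CoA to isoprenoid units. Of the 8 genes of this group, 4 were called higher in HepG2 cells and none was called in Huh7 cells, where 1 was higher and 3 were lower at an adjusted p under 0.05. Over all genes 3.29% were called higher in HepG2 cells, and 32.7% were higher and 37.4% lower at that adjusted p in Huh7 cells, so the Huh7 share that was lower is near that of all genes. ACAT2 (ENSG00000120437, chr6:159760328-159779055, plus strand) is the cytosolic acetyl-CoA acetyltransferase that joins acetyl units and is a different gene from the sterol acyltransferase SOAT2. It was at 30.5, 34.0 and 39.2 FPKM in resistant and 9.71, 13.2 and 14.2 FPKM in parental HepG2 cells. All resistant samples were above the parental ones, by 2.79 times in the means (log2 fold change 1.42 ± 0.18 (SE), adjusted p = 0.00169). In Huh7 cells, ACAT2 was at 87.5, 101 and 104 FPKM in resistant and 79.9, 81.1 and 71.0 FPKM in parental samples, which did not overlap either, but the step was 1.26-fold (log2 fold change 0.33 ± 0.12 (SE), adjusted p = 0.0316, and 0.0508 with the replicate number as a block). The difference between the lines was -1.09 ± 0.20 (SE), adjusted p = 0.000977.

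HMGCS1 (ENSG00000112972, chr5:43289395-43313512, minus strand), the cytosolic HMG-CoA synthase and a classical SREBP2 target, was at 13.9, 12.1 and 14.6 FPKM in resistant and 5.41, 5.36 and 6.00 FPKM in parental HepG2 cells. The groups were 2.42 times apart (log2 fold change 1.14 ± 0.14 (SE), adjusted p = 0.00147). In Huh7 cells its levels were 92.7, 107 and 90.5 FPKM with resistance and 96.5, 98.1 and 116 FPKM without it. The Huh7 groups overlapped and no change was detected (log2 fold change -0.10 ± 0.12 (SE), adjusted p = 0.5, 95% interval -0.38 to 0.19), and the lines differed by -1.24 ± 0.16 (SE), adjusted p = 8.89e-05. MVK encodes mevalonate kinase, which adds the first phosphate to mevalonate. Resistant HepG2 cells had 3.13, 3.87 and 3.89 FPKM and parental HepG2 cells 1.30, 1.53 and 1.43 FPKM of MVK. This was 2.55 times in the means, yet the fold change on the log2(FPKM + 1) scale, which understates the change of low genes, fell just short of the threshold (log2 fold change 0.93 ± 0.14 (SE), adjusted p = 0.00408), and limma-voom on the reads gave 1.36 and called it. In Huh7 cells MVK was at 10.6, 8.42 and 9.74 FPKM and 9.06, 7.50 and 7.14 FPKM, with overlapping groups (log2 fold change 0.25 ± 0.13 (SE), adjusted p = 0.11), and the lines differed by -0.68 ± 0.17 (SE), adjusted p = 0.00563.

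MVD (ENSG00000167508, chr16:88651935-88663161, minus strand) makes isopentenyl diphosphate from diphosphomevalonate. It was at 2.33, 4.75 and 4.59 FPKM in resistant and 1.28, 1.43 and 1.40 FPKM in parental HepG2 cells, from 186 to 410 and 79 to 104 reads. All 3 resistant samples were above the parental ones, 1 of them by less than the other two (log2 fold change 1.00 ± 0.22 (SE), adjusted p = 0.0168). The call stood at the threshold and was lost in 7 of 13 alternatives, among them upper-quartile scaling and leaving out parental replicate 1, resistant replicate 2 or resistant replicate 3. In Huh7 cells MVD went the other way, at 12.1, 11.3 and 17.6 FPKM in resistant and 22.4, 16.1 and 18.4 FPKM in parental samples. The Huh7 groups overlapped, although the adjusted p was under 0.05 (log2 fold change -0.46 ± 0.18 (SE), adjusted p = 0.0474), and the lines differed by -1.47 ± 0.31 (SE), adjusted p = 0.00199. The Huh7 value of MVD was no longer under 0.05 without parental replicate 1 or 3 or resistant replicate 1 or 2, nor with no filter (0.111).

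IDI1 (ENSG00000067064, chr10:1039152-1049170, minus strand) converts isopentenyl diphosphate into its reactive isomer. In HepG2 cells it rose 2.52-fold, with 21.4, 16.7 and 21.1 FPKM in resistant and 8.38, 5.49 and 9.64 FPKM in parental samples (log2 fold change 1.25 ± 0.21 (SE), adjusted p = 0.00553). In Huh7 cells the resistant samples at 32.0, 44.4 and 37.4 FPKM lay below the parental samples at 54.6, 59.4 and 68.9 FPKM (log2 fold change -0.68 ± 0.15 (SE), adjusted p = 0.00321). Resistant and parental samples were apart in both lines and the directions were opposite, with a difference of -1.93 ± 0.27 (SE), adjusted p = 0.000139. With the trend of each library with GC content removed, the Huh7 value of IDI1 was -0.13 (adjusted p = 0.219) and the difference -1.32.

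The other 3 genes of the group gave smaller values. PMVK, the second kinase of the mevalonate steps, averaged 3.23 ± 0.869 (SD, n = 3) FPKM in resistant and 1.97 ± 0.474 FPKM in parental HepG2 cells (log2 fold change 0.50 ± 0.20 (SE), adjusted p = 0.105), and 4.84 ± 1.40 FPKM and 3.59 ± 0.893 FPKM in Huh7 cells (log2 fold change 0.33 ± 0.21 (SE), adjusted p = 0.182). FDPS, which makes farnesyl diphosphate, averaged 3.29 ± 0.712 FPKM and 1.95 ± 0.199 FPKM in HepG2 cells without overlap of the groups (log2 fold change 0.53 ± 0.16 (SE), adjusted p = 0.0545) and 7.47 ± 1.00 FPKM and 5.87 ± 0.397 FPKM in Huh7 cells (log2 fold change 0.30 ± 0.12 (SE), adjusted p = 0.0522). GGPS1 stands on the side branch to geranylgeranyl diphosphate, which feeds protein prenylation in place of sterols. Of the 19 enzymes tested in HepG2 cells it was the 1 with a negative fold change, at 3.51 ± 0.294 FPKM and 4.59 ± 0.876 FPKM in HepG2 cells (log2 fold change -0.30 ± 0.16 (SE), adjusted p = 0.212) and 3.58 ± 0.252 FPKM and 5.80 ± 0.944 FPKM in Huh7 cells (log2 fold change -0.56 ± 0.13 (SE), adjusted p = 0.00448). On the values as deposited the Huh7 value alone passed an adjusted p of 0.05, and the difference between the lines was not resolved (-0.26 ± 0.20 (SE), adjusted p = 0.278, 95% interval -0.69 to 0.17). With the trend of each library with GC content removed, the HepG2 value of GGPS1 alone passed (-0.41, adjusted p = 0.0291). The Huh7 value was then 0.045 (adjusted p = 0.641) and the difference 0.42 (adjusted p = 0.0202).

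The 12 enzymes from squalene to cholesterol include 4 called higher in HepG2 cells, beside 3.29% of all genes, and 2 called lower in Huh7 cells, beside 14%. All 11 that were tested in HepG2 cells had a positive fold change there, 8 of them at an adjusted p under 0.05, beside 11.6% of all genes. In Huh7 cells 6 of the 12 were higher and 3 lower at that threshold, beside 32.7% and 37.4% of all genes. FDFT1 (ENSG00000079459, chr8:11795573-11839309, plus strand) is squalene synthase, the first enzyme committed to sterols. It was at 32.5, 39.8 and 42.1 FPKM in resistant and 14.7, 16.2 and 9.94 FPKM in parental HepG2 cells, 2.80 times in the means (log2 fold change 1.44 ± 0.20 (SE), adjusted p = 0.00256). In Huh7 cells it was at 80.3, 76.2 and 75.8 FPKM and 60.9, 57.3 and 49.0 FPKM, 1.39 times (log2 fold change 0.47 ± 0.11 (SE), adjusted p = 0.00563). The groups were apart in both lines, with the larger step in HepG2 cells (difference -0.97 ± 0.23 (SE), adjusted p = 0.00435).

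SQLE (ENSG00000104549, chr8:124998497-125022283, plus strand) is squalene epoxidase, an oxygen-using and rate-controlling step. Resistant HepG2 cells had 6.69, 7.76 and 9.54 FPKM and parental HepG2 cells 2.41, 2.15 and 3.41 FPKM, so that the lowest resistant sample was above the highest parental one (log2 fold change 1.30 ± 0.18 (SE), adjusted p = 0.00293). The Huh7 samples were at 13.2, 16.0 and 15.6 FPKM with resistance and 11.4, 11.2 and 10.3 FPKM without it (log2 fold change 0.41 ± 0.11 (SE), adjusted p = 0.00963). Both lines moved up, HepG2 by 3.01 times and Huh7 by 1.36 times (difference -0.89 ± 0.21 (SE), adjusted p = 0.00409). LSS (ENSG00000160285, chr21:46188141-46228824, minus strand) closes the rings of the sterol to give lanosterol. Its levels were 11.7, 13.8 and 15.2 FPKM in resistant and 5.79, 6.19 and 5.33 FPKM in parental HepG2 cells (log2 fold change 1.10 ± 0.15 (SE), adjusted p = 0.00216), a call that was lost when the trend with GC content was removed (0.98, adjusted p = 0.000762), since the value then fell under the fold threshold. In Huh7 cells LSS was at 51.4, 43.3 and 49.5 FPKM and 29.8, 29.9 and 27.3 FPKM (log2 fold change 0.71 ± 0.11 (SE), adjusted p = 0.00052). On the values as deposited this was the second largest positive fold change of the members in that line after SCAP. With the GC trend removed it was 0.17 (adjusted p = 0.071), below LBR (0.76) and INSIG1 (0.62) among others. For LSS the difference between the lines lay at the threshold (-0.39 ± 0.16 (SE), adjusted p = 0.0529, 95% interval -0.74 to -0.04) and passed it with limma-voom on reads (-0.59, adjusted p = 0.0125) and with the GC trend removed (-0.77, adjusted p = 0.000189).

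DHCR7 (ENSG00000172893, chr11:71428193-71452868, minus strand) catalyses the last reduction, from dehydrocholesterol to cholesterol, and had the largest fold change of the members in HepG2 cells. Its levels there were 16.4, 23.0 and 24.7 FPKM in resistant and 8.13, 6.65 and 4.81 FPKM in parental samples. No resistant sample was near a parental one, and the means were 3.26 times apart (log2 fold change 1.57 ± 0.22 (SE), adjusted p = 0.00251). In Huh7 cells DHCR7 was at 155, 130.4 and 143 FPKM and 106, 95.3 and 82.1 FPKM, again without overlap, but only 1.51 times apart (log2 fold change 0.60 ± 0.13 (SE), adjusted p = 0.00348). The difference between the lines was -0.98 ± 0.26 (SE), adjusted p = 0.00798.

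Lanosterol loses 3 methyl groups on the way to cholesterol, and MSMO1, which acts in this removal, had the largest difference between the lines among the enzymes on the values as deposited. MSMO1 (ENSG00000052802, chr4:165327623-165343160, plus strand) is the sterol methyl oxidase of C4 demethylation and the most abundant member in parental Huh7 cells. It fell there from 185, 225 and 177 FPKM in parental to 68.1, 99.8 and 78.6 FPKM in resistant samples, 2.38 times in the means (log2 fold change -1.25 ± 0.16 (SE), adjusted p = 0.00025), and by 0.47 on the log2 scale with the GC trend removed. In HepG2 cells it went up from 21.1, 16.8 and 16.1 FPKM to 32.5, 24.6 and 37.2 FPKM (log2 fold change 0.76 ± 0.19 (SE), adjusted p = 0.0245). No sample of one group reached into the other in either line, and the difference was -2.02 ± 0.26 (SE), adjusted p = 8.92e-05. SC5D (ENSG00000109929, chr11:121292453-121308694, plus strand), the desaturase that puts in the C5 double bond, showed the same opposite movement. Huh7 samples were at 16.6, 20.4 and 16.8 FPKM with resistance and 32.2, 41.2 and 39.0 FPKM without it (log2 fold change -1.02 ± 0.13 (SE), adjusted p = 0.000233), and HepG2 samples at 19.4, 12.3 and 17.4 FPKM and 9.13, 6.89 and 11.3 FPKM (log2 fold change 0.78 ± 0.22 (SE), adjusted p = 0.0386). The Huh7 call of SC5D sits close to the fold threshold and held in 2 of the 6 fits that left out 1 Huh7 sample, those without parental replicate 1 and without resistant replicate 2, while the difference between the lines (-1.80 ± 0.27 (SE), adjusted p = 0.000237) held in all 12 fits that left out 1 sample.

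CYP51A1, the cytochrome P450 that removes the C14 methyl group, is the least abundant enzyme in all 4 groups. It was at 0.754, 1.01 and 0.984 FPKM in resistant HepG2 cells, from 46 to 66 reads, and at 0.206, 0.24 and 0.234 FPKM in parental HepG2 cells, from 10 to 13 reads. These values did not overlap and were 4.04 times apart, but they lie under the filter on low values and were tested only when that filter was left off (log2 fold change 0.64, adjusted p = 0.0158). Huh7 samples overlapped at 0.932, 1.58 and 1.81 FPKM and 1.87, 1.24 and 1.94 FPKM (log2 fold change -0.15 ± 0.17 (SE), adjusted p = 0.467). The interaction, for which the gene was kept by its Huh7 values, was -0.79 ± 0.21 (SE), adjusted p = 0.00727, and it was lost once the GC trend was removed (-0.22, adjusted p = 0.439).

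HSD17B7, the ketoreductase of C4 demethylation, was at 4.50, 3.89 and 4.33 FPKM in resistant and 2.49, 1.78 and 1.88 FPKM in parental HepG2 cells (log2 fold change 0.79 ± 0.15 (SE), adjusted p = 0.00979). In Huh7 cells the order was opposite, with 4.54, 5.97 and 5.17 FPKM in resistant and 7.03, 6.85 and 6.69 FPKM in parental samples (log2 fold change -0.34 ± 0.12 (SE), adjusted p = 0.0267), so that the lines differed by -1.13 ± 0.17 (SE), adjusted p = 0.000243. NSDHL is the dehydrogenase of the same reaction series and moved the same way in both lines. It was at 3.28, 4.82 and 4.51 FPKM and 1.79, 2.53 and 2.23 FPKM in resistant and parental HepG2 cells (log2 fold change 0.70 ± 0.17 (SE), adjusted p = 0.0247). The Huh7 levels were 9.74, 9.22 and 10.1 FPKM and 7.79, 6.45 and 6.36 FPKM (log2 fold change 0.44 ± 0.11 (SE), adjusted p = 0.00672). The difference between the lines was -0.26 ± 0.19 (SE), adjusted p = 0.276, with a 95% interval of -0.69 to 0.17.

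TM7SF2 and LBR both encode sterol C14 reductases, and LBR also anchors chromatin at the nuclear envelope. TM7SF2 was at 7.83, 11.8 and 9.46 FPKM in resistant and 4.65, 8.19 and 5.24 FPKM in parental HepG2 cells, where the groups overlapped (log2 fold change 0.62 ± 0.22 (SE), adjusted p = 0.0798). It was at 7.50, 5.57 and 6.53 FPKM and 8.31, 8.54 and 6.86 FPKM in Huh7 cells (log2 fold change -0.24 ± 0.13 (SE), adjusted p = 0.132). Neither line passed alone, and the difference between them was -0.87 ± 0.27 (SE), adjusted p = 0.0181. LBR averaged 34.7 ± 5.60 FPKM and 30.0 ± 4.80 FPKM in resistant and parental HepG2 cells (log2 fold change 0.20 ± 0.18 (SE), adjusted p = 0.436) and 50.1 ± 10.7 FPKM and 51.0 ± 1.18 FPKM in Huh7 cells (log2 fold change -0.05 ± 0.15 (SE), adjusted p = 0.791). EBP, the sterol isomerase, was the most abundant member in both resistant lines. It averaged 235 ± 28.6 FPKM in resistant and 164 ± 15.5 FPKM in parental Huh7 cells (log2 fold change 0.51 ± 0.13 (SE), adjusted p = 0.00862), and 38.7 ± 4.74 FPKM and 26.1 ± 6.92 FPKM in HepG2 cells (log2 fold change 0.58 ± 0.20 (SE), adjusted p = 0.0752). Its change did not differ between the lines by the test (-0.06 ± 0.25 (SE), adjusted p = 0.839, 95% interval -0.60 to 0.47).

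Of the 5 regulators, none of the 4 tested in HepG2 cells was called there, beside 3.29% of all genes called higher and 2.98% called lower. With so few genes, this count does not set the regulators apart from all genes. INSIG2 was called lower in Huh7 cells, beside 14% of all genes. SREBF2 (ENSG00000198911, chr22:41833079-41907308, plus strand), whose protein SREBP2 activates the pathway and whose promoter above holds the sterol regulatory element letters, was at 15.6, 22.1 and 19.2 FPKM in resistant and 27.9, 29.5 and 20.6 FPKM in parental HepG2 cells. The groups overlapped, the mean was the lower in resistant cells and no change was called (log2 fold change -0.43 ± 0.19 (SE), adjusted p = 0.133). In Huh7 cells SREBF2 was at 40.7, 33.2 and 38.2 FPKM with resistance and 29.3, 23.0 and 22.4 FPKM without it. These samples did not overlap (log2 fold change 0.57 ± 0.13 (SE), adjusted p = 0.00517), and the lines differed by 1.00 ± 0.24 (SE), adjusted p = 0.00386. SCAP, the escort of SREBP2, behaved alike, at 14.9, 23.5 and 20.6 FPKM and 20.2, 27.0 and 20.6 FPKM in resistant and parental HepG2 cells (log2 fold change -0.20 ± 0.20 (SE), adjusted p = 0.489). In Huh7 cells it rose from 24.1, 21.6 and 18.2 FPKM to 41.2, 34.5 and 39.6 FPKM (log2 fold change 0.83 ± 0.13 (SE), adjusted p = 0.000625), the largest positive fold change of the members in that line on the values as deposited. With the GC trend removed the Huh7 value of SCAP was 0.32 (adjusted p = 0.00385). The difference between the lines was 1.03 ± 0.24 (SE), adjusted p = 0.00403. With the GC trend removed, SREBF2 and SCAP in HepG2 cells were lower at an adjusted p under 0.05 (-0.54, adjusted p = 0.0162, and -0.42, adjusted p = 0.0189).

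SREBF1 encodes the SREBP1 forms, which act mainly on fatty acid genes. It ranged over 13.0, 22.1 and 19.1 FPKM in resistant and 7.93, 11.3 and 17.0 FPKM in parental HepG2 cells, with overlap (log2 fold change 0.57 ± 0.28 (SE), adjusted p = 0.181). The Huh7 samples at 30.2, 24.2 and 35.4 FPKM and 25.4, 24.5 and 19.2 FPKM also overlapped (log2 fold change 0.36 ± 0.16 (SE), adjusted p = 0.0778). No change of SREBF1 was detected in either line at this spread.

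The INSIG pair retains SCAP and SREBP2 in the endoplasmic reticulum, and INSIG1 differed in level between the lines more than any other member. INSIG1 (ENSG00000186480, chr7:155297776-155310235, plus strand), itself a target of SREBP2, was at 78.1, 92.4 and 81.9 FPKM in resistant and 58.3, 65.6 and 49.5 FPKM in parental Huh7 cells and rose 1.46-fold (log2 fold change 0.54 ± 0.13 (SE), adjusted p = 0.00625). In HepG2 cells it was at 0.34, 0.51 and 0.223 FPKM in resistant and 0.584, 0.424 and 0.383 FPKM in parental samples, from 14 to 34 and 19 to 28 reads. The HepG2 values are under the filter and overlap, and without the filter the log2 fold change was -0.11 (adjusted p = 0.565). The interaction of INSIG1 (0.65 ± 0.18 (SE), adjusted p = 0.00946) rests on the Huh7 step, since values under 1 FPKM move little on the log2(FPKM + 1) scale, and it was lost with limma-voom on reads. INSIG2 (ENSG00000125629, chr2:118088452-118110997, plus strand) had the reverse pattern of levels. It was at 28.1, 22.0 and 21.4 FPKM in resistant and 37.3, 25.3 and 23.2 FPKM in parental HepG2 cells, with overlap (log2 fold change -0.23 ± 0.20 (SE), adjusted p = 0.436). In Huh7 cells it was at 4.92, 3.83 and 4.21 FPKM and 9.24, 9.32 and 11.3 FPKM and was called lower (log2 fold change -1.04 ± 0.13 (SE), adjusted p = 0.000168), a call held in 4 of the 6 fits without 1 Huh7 sample and lost without parental replicate 3 or resistant replicate 2. The difference between the lines was -0.81 ± 0.25 (SE), adjusted p = 0.0157, and it was lost with the GC trend removed (0.18, adjusted p = 0.524).

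Of the 4 genes that move sterols, STARD4 (ENSG00000164211, chr5:111496033-111512590, minus strand) carries cholesterol between membranes and is regulated by SREBP2. It fell in Huh7 cells from 27.1, 33.1 and 36.7 FPKM in parental to 12.4, 14.1 and 11.2 FPKM in resistant samples, 2.57 times and the largest negative fold change of the members on the values as deposited (log2 fold change -1.29 ± 0.14 (SE), adjusted p = 0.000105). With the GC trend removed the Huh7 value of STARD4 was -0.30, and that of MVD was -0.95. In HepG2 cells it rose from 3.83, 3.31 and 4.74 FPKM to 8.92, 6.07 and 7.46 FPKM (log2 fold change 0.77 ± 0.18 (SE), adjusted p = 0.0203). The groups were apart in both lines in opposite directions, and the difference of -2.06 ± 0.23 (SE), adjusted p = 3.28e-05 was the largest of the 29 on the values as deposited. With the GC trend removed it was -1.03, smaller than those of MVD, DHCR7, IDI1, ACAT2 and MSMO1 among others. NPC1 and NPC2 hand cholesterol out of the lysosome as a pair. NPC1 was at 17.5, 20.9 and 19.5 FPKM in resistant and 33.4, 35.8 and 25.1 FPKM in parental HepG2 cells, where all resistant samples were below the parental ones (log2 fold change -0.66 ± 0.17 (SE), adjusted p = 0.0267). It was the 1 member lower in HepG2 cells at an adjusted p under 0.05, while NPC2 was higher there, at 24.2, 26.2 and 25.4 FPKM and 13.6, 20.9 and 13.2 FPKM (log2 fold change 0.66 ± 0.19 (SE), adjusted p = 0.0386). Neither HepG2 value was stable. NPC1 was no longer under 0.05 without parental replicate 1 or 2 or resistant replicate 1 or 3, nor with no filter on low values (0.0606). NPC2 was no longer under it with no filter, with either scaling or with the GC trend removed (0.0555). Of the fits without 1 HepG2 sample, NPC2 stayed under it only in that without parental replicate 2. In Huh7 cells NPC1 was at 20.2, 19.4 and 20.1 FPKM and 22.7, 21.9 and 20.2 FPKM (log2 fold change -0.11 ± 0.096 (SE), adjusted p = 0.323). NPC2 was at 11.1, 9.49 and 10.6 FPKM and 10.8, 8.42 and 9.86 FPKM (log2 fold change 0.10 ± 0.12 (SE), adjusted p = 0.496), so that neither member of the pair passed the test in Huh7 cells on the values as deposited. With the GC trend removed the Huh7 values were -0.37 (adjusted p = 0.000878) for NPC1 and 0.34 (adjusted p = 0.0504) for NPC2. The difference between the lines was 0.55 ± 0.18 (SE), adjusted p = 0.0211 for NPC1. That of NPC2, -0.57 ± 0.22 (SE), adjusted p = 0.0461, lay at the threshold, and it was lost in 14 of 19 alternatives, 10 of which left out 1 of the 12 samples. NPC1L1 takes up sterol at the cell surface and was at 15.4, 19.4 and 17.3 FPKM in resistant and 9.59, 11.1 and 11.0 FPKM in parental HepG2 cells (log2 fold change 0.66 ± 0.14 (SE), adjusted p = 0.0158). In Huh7 cells it was at 16.2, 13.9 and 14.9 FPKM and 15.0, 14.0 and 12.6 FPKM with overlap (log2 fold change 0.10 ± 0.11 (SE), adjusted p = 0.42), and the lines differed by -0.56 ± 0.16 (SE), adjusted p = 0.0114.

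The Huh7 changes followed the GC content of the genes, and the HepG2 changes did not. GC content was taken over the longest GENCODE transcript of a gene, and a dependence on it can arise when libraries amplify or sequence GC-rich fragments unequally. Across all genes tested, Spearman's rho between log2 fold change and GC content was 0.617 in Huh7 cells (12545 genes) and 0.0389 in HepG2 cells (11756 genes). Across the members it was 0.579 in Huh7 cells (29 genes) and -0.0513 in HepG2 cells (27 genes). These coefficients are across genes of the same libraries and are given as a description. In Huh7 cells, 10 of the 11 members under 45% GC had a negative fold change, among them the 4 called ones, with a median of -0.56. Of the 7 members from 45% to 55% GC, 6 had a positive one, as had 9 of the 11 members at 55% GC or more, with medians of 0.44 and 0.33. In HepG2 cells the positive share was 8 of 10, 5 of 6 and 9 of 11 in the same order.

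When the trend of each library with GC content was removed, none of the 4 Huh7 calls was left. MSMO1 went to -0.47 (adjusted p = 0.0285), STARD4 to -0.30 (adjusted p = 0.00301), SC5D to -0.27 (adjusted p = 0.0158) and INSIG2 to -0.11 (adjusted p = 0.434). INSIG2 alone of these was no longer under an adjusted p of 0.05. The Huh7 values of SREBF2 and DHCR7 went to 0.04 and 0.06, with adjusted p-values of 0.553 and 0.471. Those of LSS, EBP and ACAT2 went to 0.17, 0.09 and 0.08, with adjusted p-values of 0.071, 0.389 and 0.415. INSIG1 kept its step (0.62, adjusted p = 0.00146), as did SQLE (0.44, adjusted p = 0.00115). MVD went further down (-0.95, adjusted p = 0.000542). HMGCS1 and LBR turned from about 0 to 0.53 (adjusted p = 0.000507) and 0.76 (adjusted p = 0.00159), so that a direction for these genes in Huh7 cells depends on this step. MVK (-0.29, adjusted p = 0.00396), TM7SF2 (-0.72, adjusted p = 0.00103), NPC1 (-0.37, adjusted p = 0.000878) and NPC1L1 (-0.44, adjusted p = 0.000789) also came under 0.05, as lower. In HepG2 cells 6 of the 8 calls, all but MVD and LSS, were kept with the trend removed, at 1.03 for HMGCS1 to 1.45 for DHCR7, and the removal lowered the median over all genes from 0.12 to 0.01. Of the 21 differences between the lines, 18 kept an adjusted p under 0.05, and CYP51A1, INSIG2 and NPC2 did not. Those of genes with low GC content became smaller, from -2.06 to -1.03 for STARD4, from -2.02 to -1.16 for MSMO1, from -1.80 to -0.99 for SC5D and from -1.24 to -0.54 for HMGCS1, and those of MVD (-1.67), DHCR7 (-1.35) and MVK (-1.06) became larger. A further 5 members came under an adjusted p of 0.05, namely FDPS (-0.60), LSS (-0.77) and NSDHL (-0.44) with the higher change in HepG2 cells and GGPS1 (0.42) and LBR (0.62) with the higher change in Huh7 cells. The opposite directions in the lines were lost for IDI1, as given above, and for HSD17B7, whose Huh7 value went to 0.14 (adjusted p = 0.138). Whether the GC dependence in Huh7 cells is technical was not tested.

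**Figure D3:**
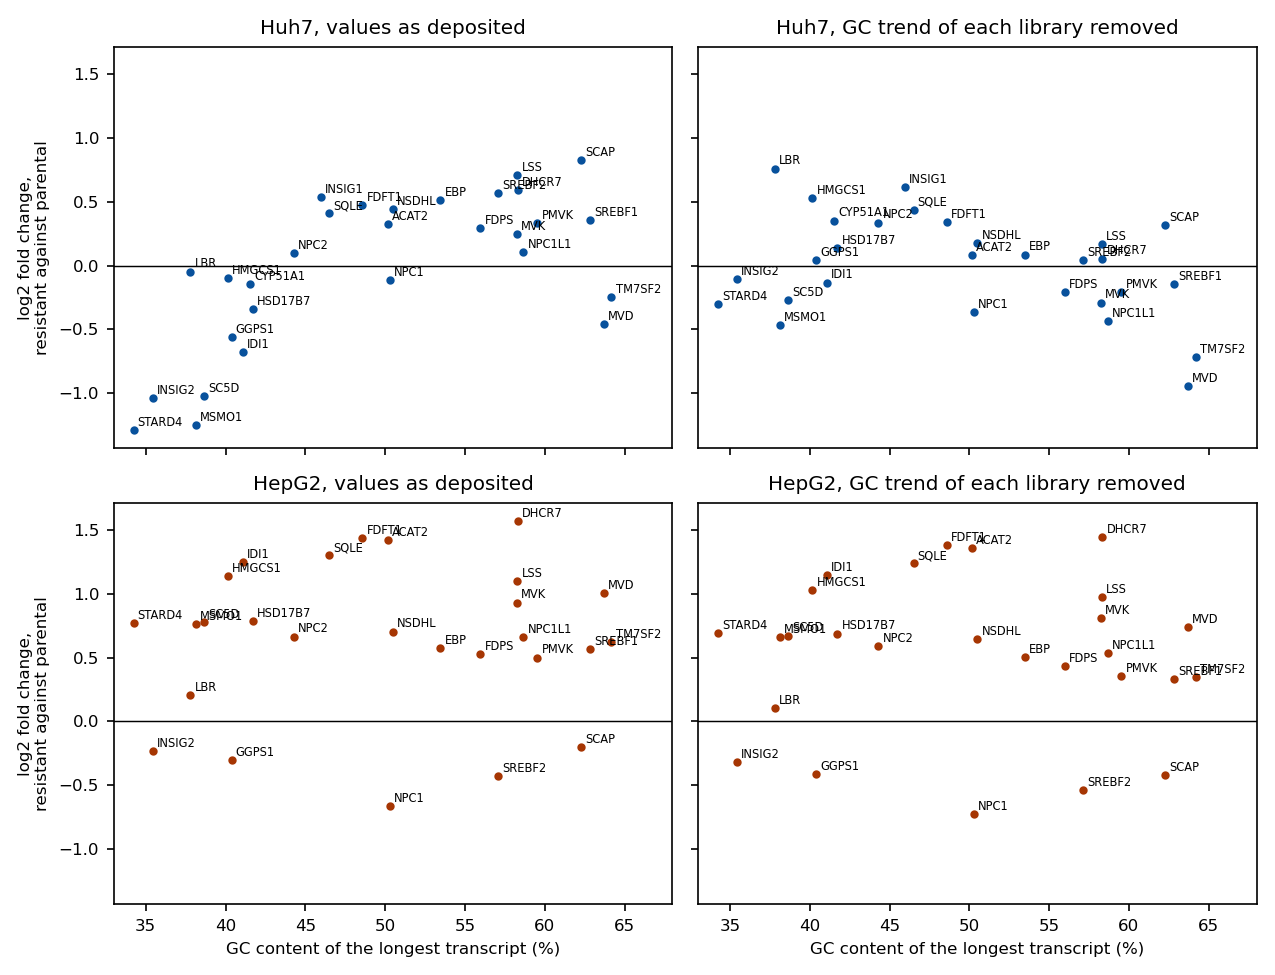
Log2 fold change between resistant and parental cells (y axis) against the GC content of the longest transcript (x axis, %) for each member, in Huh7 (top) and HepG2 (bottom), with the values as deposited on the left and with the GC trend of each library removed on the right. At the upper left the points climb from STARD4 at -1.29 to SCAP at 0.83, and at the upper right the lowest of the 4 called genes is MSMO1 at -0.47. The HepG2 points move less, each of them down by 0.056 to 0.28.

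The parental lines themselves differed in the pathway. Parental Huh7 cells had the higher level in 18 of the 29 members by the call rule (62.1%), beside 18.4% of 13628 genes, and parental HepG2 cells in 1, INSIG2, beside 12%. The 18 include INSIG1 and CYP51A1, which passed the filter on low values through their Huh7 levels alone, and of the 27 members that passed it in both lines 16 were higher in Huh7 cells. The median log2 difference was 1.37 for the members and 0.17 for all genes. Of the 18, 16 were enzymes. HMGCS1 averaged 104 ± 10.8 (SD, n = 3) FPKM in parental Huh7 and 5.59 ± 0.357 FPKM in parental HepG2 cells, 18.5 times apart (log2 difference 3.98 ± 0.11 (SE), adjusted p = 9.17e-11). The ratio was 14.4 for DHCR7, 13.9 for MVD, 10.9 for MSMO1 and 8.16 for STARD4, and the samples of the parental lines did not overlap for these genes. INSIG1 was 125 times higher in parental Huh7 than in parental HepG2 cells, while INSIG2 was 2.88 times higher in HepG2 cells (log2 difference -1.41 ± 0.17 (SE), adjusted p = 2.13e-05). The transcription factor and its escort did not show this difference, with SREBF2 at 24.9 ± 3.80 FPKM and 26.0 ± 4.74 FPKM (log2 difference -0.05 ± 0.17 (SE), adjusted p = 0.8, 95% interval -0.42 to 0.32) and SCAP at 21.3 ± 3.00 FPKM and 22.6 ± 3.83 FPKM (log2 difference -0.08 ± 0.17 (SE), adjusted p = 0.701, 95% interval -0.46 to 0.30). The parental samples are the controls of the resistant cells too, so this comparison shares samples with those above. Resistant HepG2 cells stayed below parental Huh7 cells for each of the 8 genes called higher, as for HMGCS1 with at most 14.6 against at least 96.5 FPKM and for DHCR7 with at most 24.7 against at least 82.1 FPKM.

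**Figure D4:**
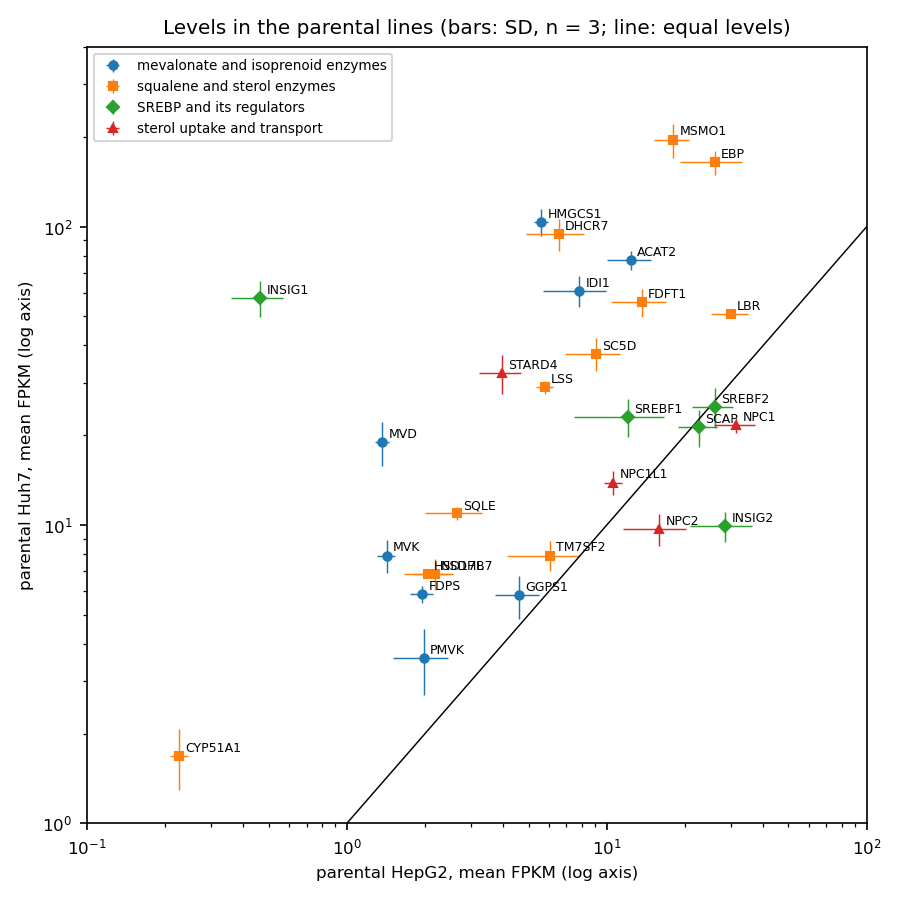
Mean FPKM of each member in parental HepG2 (x axis) and parental Huh7 cells (y axis), both on log axes, with SD bars over 3 samples, markers by role and a line of equal levels. Most enzymes lie above the line, INSIG1 at 0.464 and 57.8 FPKM lies farthest from it, SREBF2 and SCAP lie on it, and INSIG2, NPC1 and NPC2 lie below it.

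Other genes around the pathway were counted from 5 lists, which were drawn up with earlier results of these data known. The counts below are at an adjusted p under 0.05, where 32.7% of all genes tested were higher and 37.4% lower in Huh7 cells, and 11.6% higher and 8.43% lower in HepG2 cells, and the lists are to be read beside these shares. Of 10 SREBP targets outside sterol synthesis, most of them fatty acid genes, 3 were higher and 1 lower in HepG2 cells, and 7 were higher and 2 lower in Huh7 cells. FASN, the fatty acid synthase, was called higher in HepG2 cells, at 132 ± 51.8 (SD, n = 3) FPKM in resistant and 50.5 ± 10.4 FPKM in parental samples (log2 fold change 1.30, adjusted p = 0.0229), and in Huh7 cells it was at 209.6 ± 46.4 FPKM and 149.6 ± 32.1 FPKM (log2 fold change 0.48, adjusted p = 0.0608). Of the 8 genes of SREBP processing and turnover, 4 were higher and 1 lower in Huh7 cells, and 2 were lower in HepG2 cells.

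Of the 12 genes of sterol storage, movement and export, 6 were tested in Huh7 cells, with 4 higher and 1 lower, and 8 in HepG2 cells, with 1 higher and 2 lower. SOAT2, which esterifies cholesterol for storage and secretion, was called higher in Huh7 cells, from 14.5 ± 2.42 FPKM to 48.4 ± 4.15 FPKM (log2 fold change 1.68, adjusted p = 3.57e-05). In HepG2 cells it went from 21.4 ± 4.43 FPKM to 13.2 ± 1.22 FPKM (log2 fold change -0.64, adjusted p = 0.0386). ABCA1, which loads cholesterol onto high-density lipoprotein, went opposite to SOAT2 in both lines. It was called lower in Huh7 cells, from 49.8 ± 3.39 FPKM to 21.5 ± 2.39 FPKM (log2 fold change -1.18, adjusted p = 7.38e-05), and was higher in HepG2 cells, from 15.0 ± 2.25 FPKM to 24.9 ± 3.83 FPKM (log2 fold change 0.70, adjusted p = 0.023). Of the 7 genes of LXR and oxysterols, 4 were tested in each line, with 3 higher in Huh7 cells and 1 lower in HepG2 cells. Of the 10 genes that use isoprenoids, 4 were higher and 1 lower in Huh7 cells and 1 was higher in HepG2 cells. The median log2 fold changes of these 5 lists ran from -0.02 to 0.53 in Huh7 cells and from -0.08 to 0.40 in HepG2 cells, where the median of the 19 enzymes tested was 0.79.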

How the data were processed

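RNA was sequenced from both lines, resistant and parental (3 samples per group, NEBNext Ultra libraries; strand setting, aligner and quantification tool not given in the sources used here; bcl2fastq and GRCh38 per the submitters' processing notes). The labels and the methods of the study name different RNA extraction reagents. The authors deposited 1 value per gene and sample without a unit; the deposited values are treated as FPKM because value times GENCODE 29 exon length gives whole reads, within 0.05 and up to 2000 reads, for 99.6% of values in 6896 single-exon genes and 95.7% in multi-exon genes. RPKM and FPKM could not be told apart. The 71462 NONCODE genes were left out.

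A gene was tested in a line if 3 or more of its 6 samples reached 1 FPKM, with limma 3.58.1 (R 4.3.3, trend, two-sided) on log2(FPKM + 1). An exact permutation test of 3 samples against 3 cannot go under 0.1. On simulated data with 200 genes changed by 1.5 (log2), the Huh7 fit recovered 94% and called 1 further gene of 12554. The HepG2 fit recovered 88.5% and called 2 further genes of 11762. Whether these rates hold for the sequenced libraries was not tested. In the Huh7 libraries far more genes changed, with 32.7% higher and 37.4% lower at an adjusted p under 0.05. Every sample is given for members called in a line, under an adjusted p of 0.05 in both lines or in the interaction, and for the regulators; pathway genes are named if called, except 1 that is not reported here. The members and lists were chosen with earlier results of these data known. Alternatives were a pseudocount of 0.1, no filter, scaling by the upper quartile or by median ratios, limma-voom, removal of the GC trend (lowess, span 0.3), the replicate block and leaving out each sample. Tables were read with Python 3.11.15 and pandas 2.3.3.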

Additional observations from a re-analysis of the deposited data

Results flagged for a closer look

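The change with resistance differed between Huh7 and HepG2 cells for 21 of the 29 members, by the interaction of line and resistance in limma over all 12 samples. It was higher in HepG2 cells for 17 members (58.6%), beside 33.4% of all genes tested. For 4 members (13.8%) it was higher in Huh7 cells, beside 23.3%. CYP51A1 and INSIG1 passed the filter on low values through their Huh7 samples alone. Values are the log2 fold change in Huh7 cells minus that in HepG2 cells, with 3 samples per group. Among the mevalonate and isoprenoid enzymes the difference was -1.09 ± 0.20 (SE), adjusted p = 0.000977 for ACAT2, -1.24 ± 0.16 (SE), adjusted p = 8.89e-05 for HMGCS1, -0.68 ± 0.17 (SE), adjusted p = 0.00563 for MVK, -1.47 ± 0.31 (SE), adjusted p = 0.00199 for MVD and -1.93 ± 0.27 (SE), adjusted p = 0.000139 for IDI1. Among the squalene and sterol enzymes it was -0.97 ± 0.23 (SE), adjusted p = 0.00435 for FDFT1, -0.89 ± 0.21 (SE), adjusted p = 0.00409 for SQLE, -0.79 ± 0.21 (SE), adjusted p = 0.00727 for CYP51A1, -0.87 ± 0.27 (SE), adjusted p = 0.0181 for TM7SF2, -2.02 ± 0.26 (SE), adjusted p = 8.92e-05 for MSMO1, -1.13 ± 0.17 (SE), adjusted p = 0.000243 for HSD17B7, -1.80 ± 0.27 (SE), adjusted p = 0.000237 for SC5D and -0.98 ± 0.26 (SE), adjusted p = 0.00798 for DHCR7. Of the regulators, SREBF2 (1.00 ± 0.24 (SE), adjusted p = 0.00386), SCAP (1.03 ± 0.24 (SE), adjusted p = 0.00403) and INSIG1 (0.65 ± 0.18 (SE), adjusted p = 0.00946) had the higher change in Huh7 cells and INSIG2 (-0.81 ± 0.25 (SE), adjusted p = 0.0157) in HepG2 cells. Of the transporters, it was -2.06 ± 0.23 (SE), adjusted p = 3.28e-05 for STARD4, 0.55 ± 0.18 (SE), adjusted p = 0.0211 for NPC1, -0.57 ± 0.22 (SE), adjusted p = 0.0461 for NPC2 and -0.56 ± 0.16 (SE), adjusted p = 0.0114 for NPC1L1. MVD, IDI1, MSMO1, HSD17B7, SC5D and STARD4 passed an adjusted p of 0.05 in both lines with opposite signs. With the GC trend removed, the Huh7 values of IDI1 (-0.13, adjusted p = 0.219) and HSD17B7 (0.14, adjusted p = 0.138) no longer did, and with no filter on low values the HepG2 values of MVD, MSMO1, SC5D and STARD4 had adjusted p-values of 0.0648, 0.0649, 0.104 and 0.0572. The Huh7 value of MVD no longer passed without parental replicate 1 or 3 or resistant replicate 1 or 2. That of HSD17B7 no longer passed without parental replicate 1 or 2 or resistant replicate 1 or 3. Without resistant HepG2 replicate 3, the HepG2 values of MVD, MSMO1, HSD17B7, SC5D and STARD4 no longer passed. Leaving out other single HepG2 samples also took away MVD, MSMO1, SC5D and STARD4. How many of all genes passed in both lines with opposite signs was not counted. At that adjusted p, 32.7% of all genes tested were higher and 37.4% lower in Huh7 cells. In HepG2 cells the shares were 11.6% and 8.43%. The difference was lost with the GC trend removed for CYP51A1, INSIG2 and NPC2, with limma-voom for INSIG1 and without parental Huh7 replicate 3 for NPC1. That of NPC2 was kept in only 5 of 19 alternatives, among them 2 of the 12 fits that left out 1 sample.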

How the results depend on the processing

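Depth and spread limit these results: INSIG1 and CYP51A1 rest on 10 to 66 reads in a HepG2 sample, calls near the fold threshold moved with single samples, and 3 samples per group leave wide intervals. Removing the GC trend of each library changed most in Huh7 cells, where 703 genes were higher, 787 lower and 0 members lower, and where HMGCS1 (0.53), CYP51A1 (0.35), HSD17B7 (0.14), LBR (0.76), GGPS1 (0.045), MVK (-0.29), PMVK (-0.21), FDPS (-0.21), SREBF1 (-0.14) and NPC1L1 (-0.44) changed sign. In the difference between the lines it turned GGPS1 (0.42), LBR (0.62) and INSIG2 (0.18). The cause was not tested. The trend is removed against the mean of a line, so it gives no value for the parental comparison. Limma-voom called 2849 genes lower in Huh7 cells and 685 higher in HepG2 cells, and a pseudocount of 0.1 called 612 higher in HepG2 cells. The difference for EBP changed sign with median-ratio scaling (0.031), and the parental difference for SREBF2 with limma-voom (0.0024).

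At an adjusted p under 0.05 without the fold threshold, the 16 members higher in HepG2 cells became 11 with no filter on low values, where MVD, MSMO1, NSDHL, SC5D, STARD4 and NPC2 were no longer under it and CYP51A1 was, and 8 to 15 without 1 sample, and the 10 higher in Huh7 cells became 7 with the GC trend removed and 9 to 12 without 1 sample.

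Leaving out 1 sample gave 854 to 1321 genes higher and 1190 to 1942 lower in Huh7 cells, 0 members higher and 2 to 4 lower (2 without parental replicate 3), and in HepG2 cells 260 to 473 genes higher, 276 to 357 lower, 7 to 9 members higher and 0 lower. It gave 2642 to 3218 and 3740 to 4646 genes, and 3 to 4 and 16 to 18 members, with the higher change in Huh7 and in HepG2 cells, and 2118 to 2698 and 1517 to 1739 genes, and 18 to 19 and 1 member, with the higher level in parental Huh7 and HepG2 cells. Small values changed sign without 1 sample: in Huh7 cells CYP51A1 (-0.27 to 0.013) and LBR (-0.21 to 0.079), in the difference between the lines PMVK (-0.30 to 0.048), SREBF1 (-0.47 to 0.037) and EBP (-0.26 to 0.096), and between the parental lines SREBF2 (-0.20 to 0.044) and SCAP (-0.17 to 0.050). The positive values of CYP51A1 and LBR came without resistant replicate 1. None of these had passed the test.

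Samples with the same replicate number did not deviate together throughout (correlation of deviations 0.07, 0.05 and -0.20 in Huh7 and 0.22, 0.39 and -0.01 in HepG2), so the numbers were not taken as pairs. With the replicate number as a block, 1081 genes were higher and 1760 lower in Huh7 cells and 426 and 353 in HepG2 cells, and no member's call by both thresholds changed. At an adjusted p under 0.05 alone, the block took away ACAT2 in Huh7 cells (0.0508) and added PMVK (0.0325), FDPS (0.0323), TM7SF2 (0.015), EBP (0.0203) and SREBF1 (0.0482) in HepG2 cells.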
